A study of Homo sapiens with 10 samples.

Results

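The 177 olfactory receptor genes of chromosome 11 were described by the peaks that MDAMB231 cells had at their promoters, along their lengths and between them. The genes were the protein-coding genes of chromosome 11 in GENCODE release 44 on GRCh37 whose symbols have the form of an olfactory receptor (OR, a family number, subfamily letters and a member number). The rule itself uses symbols only. They were 177 of 414 such genes (42.8%) and of 20098 coding genes on chromosomes 1 to 22 and X. In the annotation, 6 of the 177 were coding genes although their symbols end in P, the usual sign of a pseudogene.

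MDAMB231 is an established triple-negative breast cancer cell line, and the cells were grown in DMEM containing 5% FBS without treatment. ChIP-seq, in which an antibody recovers DNA wrapped around a modified histone, was carried out with antibodies against H3K4me3, H3K27Ac and H3K4me1, with 2 samples for each mark and 1 input. FAIRE-seq, which recovers nucleosome-depleted DNA from cells fixed in 1% formaldehyde, had 2 samples and its own input. Each deposited list pools the 2 samples of its assay, so no count has an error between replicates. The intervals given for shares are 95% Wilson intervals, and the 95% interval of a median comes from the ranked values. They cover only counting error over genes, or over peaks where peaks were counted, and treat neighbours as independent. Chromosome 11 had 918 H3K4me3 peaks, 1686 H3K27Ac peaks, 1290 H3K4me1 peaks and 2196 FAIRE peaks. The depth of single samples cannot be read from lists of peaks. MDAMB231 is a single line, and no olfactory tissue was measured in these samples.

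Olfactory receptors are G protein-coupled receptors of the olfactory sensory neurons, each of which expresses a single receptor gene from a single allele. Class I receptors, first known from fish, and class II receptors, typical of land vertebrates, lie in tandem clusters, and in other tissues these clusters are known as compact, late-replicating and largely untranscribed chromatin. H3K4me3 marks active promoters, H3K4me1 marks enhancers and H3K27Ac marks both when active. The repressive marks of olfactory receptor clusters, such as H3K9me3, were not among the lists analysed here, so silence is seen only as a lack of active marks.

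The cell line was checked against fixed lists of marker genes, with a mixed outcome. All 6 genes of mesenchymal-like breast cancer cells (VIM, CD44, EGFR, CAV1, AXL and ZEB1) had peaks of all 4 lists at their promoters, and the 5 genes active in every cell (ACTB, GAPDH, EEF1A1, RPLP0 and PPIA) all had H3K4me3, H3K27Ac and FAIRE peaks. The 5 luminal genes (ESR1, PGR, GATA3, FOXA1 and CDH1) had been listed as genes that should lack H3K4me3 and H3K27Ac, and this did not hold. ESR1, PGR, GATA3 and FOXA1 had H3K4me3 peaks, with scores of 1258, 399.5, 2395 and 2735. GATA3 and CDH1 had H3K27Ac peaks, with scores of 383 and 538, and FOXA1 and CDH1 had FAIRE peaks, with heights of 51.5 and 31.7. Of all coding genes, 67.3% had an H3K4me3 peak and 63.5% an H3K27Ac peak at a promoter. No luminal gene had an H3K4me1 peak, against 20% of all coding genes. With 5 genes, this cannot be told from the share of all coding genes. None of the 4 markers of olfactory neurons (OMP, CNGA2, GNG13 and STOML3) had a peak of any list. Histone scores are the log10 of the p-value given by MACS, multiplied by minus 10, and many H3K4me3 and H3K27Ac peaks shared the value 3100, while the highest score of both lists was 3233.

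Nearly all of the receptor promoters were without a peak. A promoter was taken as 1 kb on each side of any annotated start site, and a peak was counted when it shared at least 1 base with it. An H3K4me3 peak was found at 1 of the 177 genes (0.565%, interval 0.0998% to 3.13%), against 67.3% of all coding genes. An H3K27Ac peak was found at 2 genes (1.13%, interval 0.31% to 4.03%), against 63.5% of all coding genes. H3K4me1 was found at 1 gene, against 20% of all coding genes. FAIRE was found at 2 genes, against 39.3% of all coding genes. A peak of any list was found at 4 receptor genes (2.26%, interval 0.882% to 5.67%), whereas 70.7% of all coding genes had one. Thus 173 of the 177 promoters had no peak of any of the 4 lists.

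The same was true further into the genes. Within the whole gene record, 4 receptor genes (OR52K1, OR51B5, OR52N2 and OR9Q1) held a peak of any list, compared with 76.6% of all coding genes. Over the longest coding exon, which in an olfactory receptor holds nearly the whole protein (median 942 bases), 0 of 177 genes had a peak of any list (upper bound 2.12%), compared with 19.3% of all coding genes. Of the 1140 other coding genes of chromosome 11, 765 (67.1%) had an H3K4me3 peak at a promoter, 720 (63.2%) an H3K27Ac peak and 810 (71.1%) a peak of any list, all close to the shares over all coding genes. Their shares were higher than those of all coding genes for H3K4me1 (25.4%), for FAIRE (43.9%) and for any list over the longest coding exon (24.2%).

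Receptors on the other chromosomes also had few peaks. Of 237 olfactory receptor genes elsewhere, 0 had an H3K4me3 peak, 2 had an H3K27Ac peak and 3 (1.27%) had a peak of any list. These were OR14A2, with an H3K27Ac score of 605 and a FAIRE height of 37.1, OR2M5, with an H3K27Ac score of 2100, and OR6J1, with an H3K4me1 score of 178 (named after their values were seen). In their whole records, 8 of the 237 genes (3.38%, interval 1.72% to 6.52%) held a peak of any list, and 1 had a peak over its longest coding exon. Among 34 taste, vomeronasal and trace amine receptor genes, which belong to other chemosensory families, 1 had a promoter peak.

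**Figure D1:**
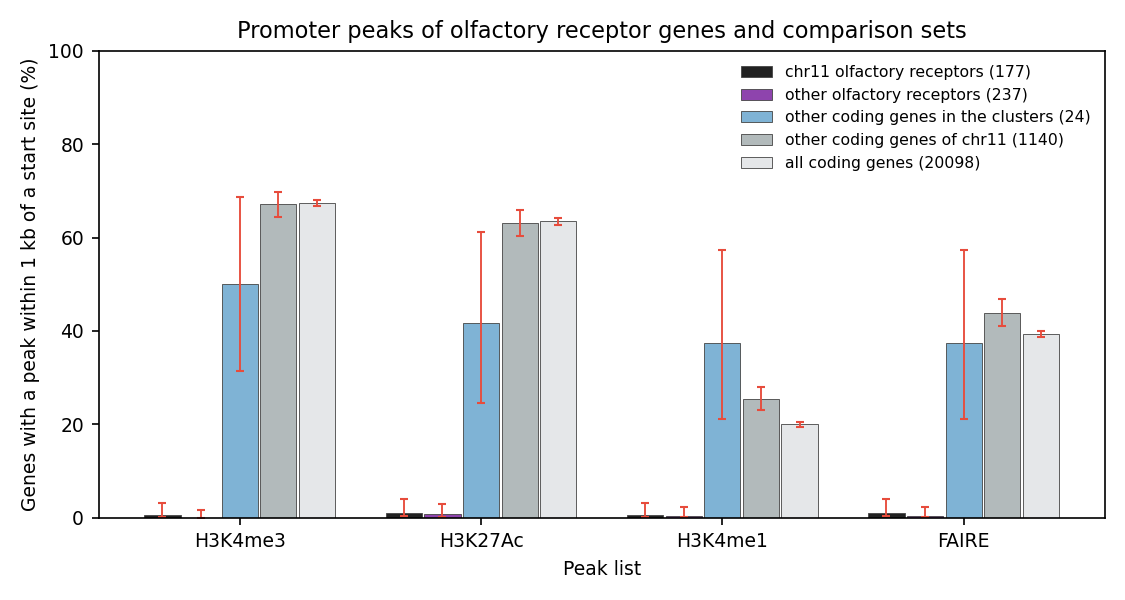
Percentage of genes (y axis) with a peak of each list (x axis) within 1 kb of a start site, for the 177 olfactory receptor genes of chromosome 11, the 237 on other chromosomes, the 24 other coding genes within the clusters, the 1140 other coding genes of chromosome 11 and all 20098 coding genes. Bars are shares and red lines are 95% Wilson intervals; both receptor sets stay at or below 1.13% in every list.

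The 4 receptor genes with a promoter peak did not share a pattern. OR52N2 (class I, plus strand) had an H3K4me3 peak at chr11:5829503-5830816 with a score of 652 and a FAIRE peak at chr11:5829502-5830069. The H3K4me3 peak lay over its start site at 5830154, and the FAIRE peak ended 85 bp upstream of it. A FAIRE height is the deposited triangle-weighted coverage of the peak. It was 39.8 at OR52N2, and 13.5% of all FAIRE peaks were lower. The start site is 11.4 kb from the coding exon, and the peaks also lay within the record of TRIM5, an antiviral restriction factor encoded on the minus strand. No H3K27Ac peak was nearer to OR52N2 than 123 kb.

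OR9Q1 (class II, plus strand) had an H3K27Ac peak at chr11:57791100-57792879 and a FAIRE peak at chr11:57791832-57792763. Both were weak. The H3K27Ac score was 52, with 0.645% of that list below it, and the FAIRE height was 45.9. The OR9Q1 record is 158 kb long, and the marked start site is 156 kb from the coding exon. A stronger H3K27Ac peak with a score of 1488, at chr11:57825349-57830384, lay 34.0 kb inside the record at the start of a lncRNA without a symbol.

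OR52H1 (class I, minus strand) had an H3K27Ac peak with a score of 972 at chr11:5570614-5573444, 844 bp upstream of its start site. At the same place an H3K4me1 peak with a score of 153 and a FAIRE peak with a height of 94.4 began 1.25 kb and 1.59 kb from the start site, just outside the window. The neighbouring pseudogene OR52H2P also starts there. OR52K1 (class I, plus strand) had an H3K4me1 peak with a score of 201 at chr11:4500937-4503468, 408 bp upstream of its start site. At the other end of the OR52K1 record, an H3K4me3 peak with a score of 103 lay at chr11:4513844-4514989, beyond the coding exon by 2.77 kb. H3K4me1 and H3K4me3 were thus at opposite ends of the same gene, and no FAIRE peak was closer to its start site than 56.8 kb. Both histone peaks also overlapped the record of a lncRNA without a symbol.

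Another gene, OR51B5, had peaks in its record but none at a start site. This record of 202 kb runs past several other receptor genes into the HBE1 and HBG2 records. It held an H3K27Ac peak with a score of 1617, an H3K4me1 peak with a score of 279.6 and FAIRE peaks with heights of 75.9 and 54.2, the nearest of them 19.1 kb from an OR51B5 start site.

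The annotation of start sites differed among the receptors. In 80 of the 177 records (45.2%) every start site was the first coding base, so that the annotation gives no 5′ exon and the true start may lie further upstream. None of these 80 genes had a promoter peak. The 4 marked genes were among the 97 genes with a start site upstream of the coding sequence.

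The 250 bases before the marked start sites are shown with every CpG in capitals, beside the same stretch of TRIM68, a neighbour with peaks of all 4 lists. They are from GRCh37, written 5′ to 3′ on the strand of the gene, and are upstream of the first annotated base.
OR52K1, chr11:4503626-4503875, plus strand: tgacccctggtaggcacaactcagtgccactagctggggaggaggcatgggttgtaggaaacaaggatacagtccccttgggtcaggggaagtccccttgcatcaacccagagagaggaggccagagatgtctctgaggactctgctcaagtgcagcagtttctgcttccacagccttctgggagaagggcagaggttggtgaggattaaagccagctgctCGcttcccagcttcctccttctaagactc
OR52H1, chr11:5569771-5570020, minus strand: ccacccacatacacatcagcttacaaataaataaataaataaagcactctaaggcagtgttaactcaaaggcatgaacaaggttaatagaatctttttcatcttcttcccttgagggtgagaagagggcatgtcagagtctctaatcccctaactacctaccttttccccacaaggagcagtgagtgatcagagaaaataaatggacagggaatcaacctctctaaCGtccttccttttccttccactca
OR52N2, chr11:5829904-5830153, plus strand: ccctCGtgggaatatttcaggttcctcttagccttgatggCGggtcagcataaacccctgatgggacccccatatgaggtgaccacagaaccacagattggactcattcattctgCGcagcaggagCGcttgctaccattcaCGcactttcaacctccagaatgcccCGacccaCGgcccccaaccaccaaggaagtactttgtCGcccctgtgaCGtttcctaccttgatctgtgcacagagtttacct
OR9Q1, chr11:57791103-57791352, plus strand: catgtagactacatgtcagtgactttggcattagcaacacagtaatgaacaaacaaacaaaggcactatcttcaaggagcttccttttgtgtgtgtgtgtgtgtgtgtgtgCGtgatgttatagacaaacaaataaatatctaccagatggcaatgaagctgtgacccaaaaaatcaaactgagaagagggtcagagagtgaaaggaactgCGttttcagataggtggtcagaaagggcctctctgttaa
TRIM68, chr11:4629462-4629711, minus strand: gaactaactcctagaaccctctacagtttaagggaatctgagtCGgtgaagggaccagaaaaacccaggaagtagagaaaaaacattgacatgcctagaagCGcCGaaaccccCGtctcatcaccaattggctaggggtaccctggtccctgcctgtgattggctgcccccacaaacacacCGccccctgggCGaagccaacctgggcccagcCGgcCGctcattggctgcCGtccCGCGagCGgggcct
OR52N2 had 9 CpG and TRIM68 had 12, whereas OR9Q1 had 2 and OR52K1 and OR52H1 had 1 each. The GC content of these stretches was 54.0% for OR52N2 and 58.8% for TRIM68. It was 56% for OR52K1, so a GC-rich stretch could be poor in CpG.

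CpG-poor promoters were the rule among the receptors. In the 300 bases from 250 before to 50 after the 5′ end, the median GC content of the 177 genes was 37.3% (quartiles 33.0% and 42%), against 60.3% for all coding genes. The median ratio of observed to expected CpG was 0.12, against 0.694. The ratio was above 0.6 in 4 receptor genes (2.26%) and in 58.0% of all coding genes. OR52N2, with a ratio of 0.633, was 1 of these 4. The others were OR10Q1 (0.846), OR56A3 (0.833) and OR5D18 (0.653), and none of these had a peak at its promoter (named after their values were seen). The 330 other coding genes of chromosome 11 without a promoter peak had a median ratio of 0.24 and a median GC content of 52.2%, between the receptors and the genome.

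Short motifs were also counted in these windows. TATAAA was found on either strand in 35.6% of the receptor promoters and in 10.9% of all coding promoters, which are richer in GC. It was in 34.6% of the receptors on other chromosomes, 29.2% of the other cluster genes and 22.7% of the other chromosome 11 genes without a promoter peak. TAATTA, a core of homeodomain sites such as those of LHX2 and EMX2, was found in 21.5% of the receptor promoters and 3.82% of all coding promoters. It was in 21.5% of the receptors on other chromosomes and 6.97% of the other chromosome 11 genes without a promoter peak. TCCCNNGGG, a core of sites for EBF proteins, was found in 6.21% of the receptor promoters and 9.3% of all promoters. It was present in 11 of the 97 promoters with an upstream start site (11.3%) and in 0 of the 80 that began at the coding sequence. A match describes letters in the window and is not a binding site.

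**Figure D2:**
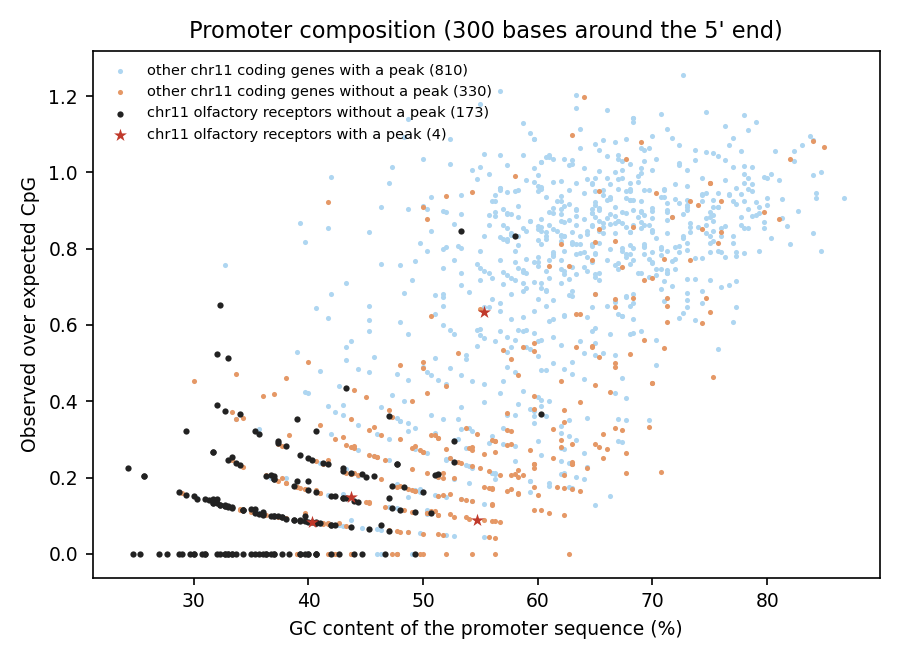
GC content (x axis, percent) and ratio of observed to expected CpG (y axis) in the 300 bases around the 5′ end of each coding gene of chromosome 11. Black points are the 173 receptor genes without a promoter peak, red stars the 4 with one, and blue and orange points the 810 and 330 other coding genes with and without one. The receptors gather at low GC and low CpG, with a median of 37.3% and 0.12.

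Most receptor genes were far from any peak. The median distance from the nearest start site of a gene to the nearest peak of any list was 79.4 kb (interval of the median 62.0 to 102 kb; quartiles 31.2 and 349 kb). The same median was 0 kb for the other coding genes of chromosome 11. A peak within 10 kb was found for 15 receptor genes (8.47%) and for 81.2% of the other coding genes. A distance of over 100 kb was found for 77 receptor genes (43.5%) and for 4.74% of the others. By list, the medians for the receptors were 223 kb for H3K4me3, 204 kb for H3K27Ac, 180 kb for H3K4me1 and 94.4 kb for FAIRE. Neighbouring genes share their nearest peak, so members of a cluster are not replicates of one another.

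Apart from the genes above, those closest to a peak were OR51M1 (2.69 kb), OR52E6 (2.85 kb), OR8B3 (3.13 kb) and OR51V1 (4.0 kb), each nearest to a FAIRE peak, and OR2D3 (4.07 kb), nearest to an H3K27Ac peak. The farthest were OR4C46 (2743 kb), OR4A8 (2664 kb) and OR4A5 (2640 kb), next to the centromere, followed by OR4A16 (1497 kb) and OR4A15 (1472 kb) on its other side. The distances of the first 3 include bases of unknown sequence. OR51E1 and OR51E2, whose transcripts are known outside the nose, had no peak in promoter or record, and their nearest peaks were FAIRE peaks at 16.8 kb and 58.4 kb.

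**Figure D3:**
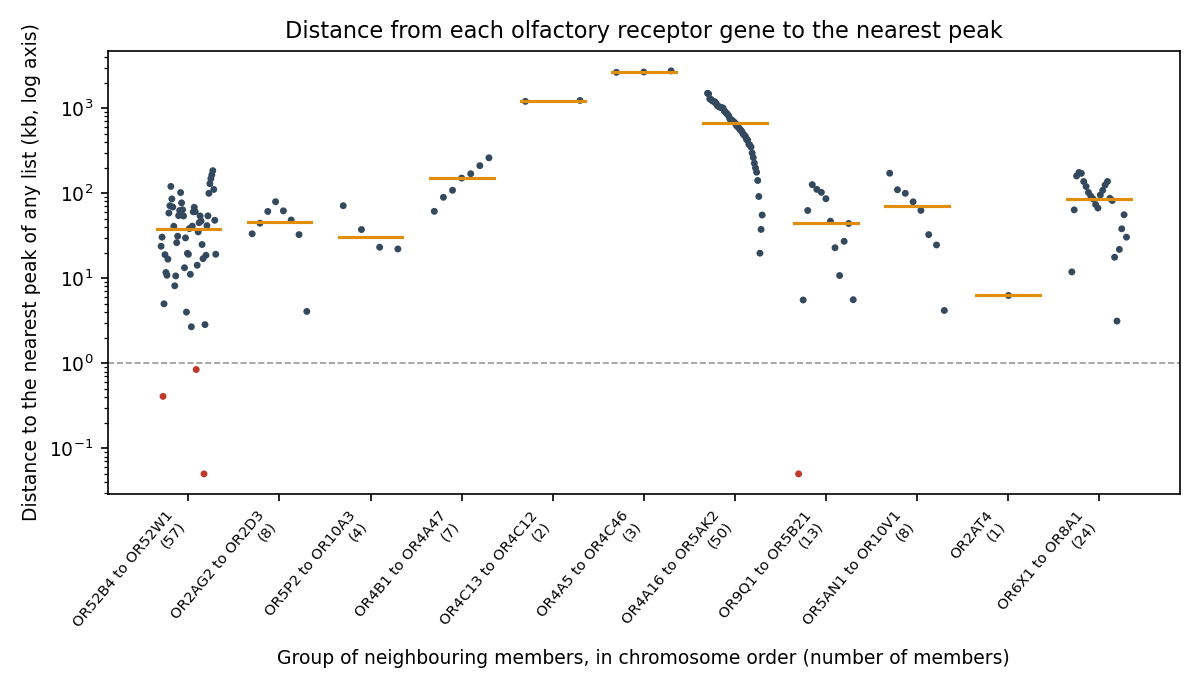
Distance in kb (log axis) from the nearest start site of each of the 177 receptor genes to the nearest peak of any list, by group of neighbouring genes in chromosome order; orange lines are group medians and the dashed line is 1 kb. Red points are the 4 genes with a promoter peak, with distances under 0.05 kb drawn at 0.05 kb. Group medians run from 6.3 kb for the lone OR2AT4 to 2664 kb for OR4A5 to OR4C46.

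Around other genes the peaks gathered at the start site, and around the receptors they did not. In bins of 2 kb, the H3K4me3 list reached 62.7% of the other coding genes of chromosome 11 in the first bin downstream of the 5′ end, and FAIRE reached 34.0%. For the receptors the same bin was reached by H3K4me3 in 0.565% and by FAIRE in 0.565% of genes. The highest share for the receptors in any bin within 50 kb was 4.52%, for FAIRE.

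**Figure D4:**
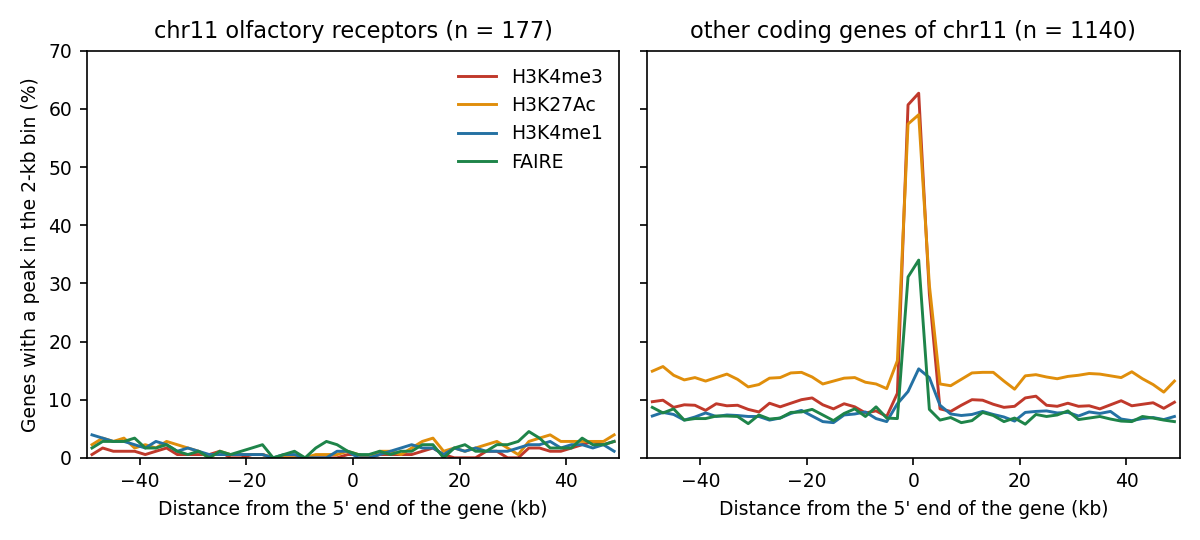
Percentage of genes (y axis) with a peak in each 2-kb bin by distance from the 5′ end of the gene (x axis, kb, negative upstream), for the 177 receptor genes (left) and the 1140 other coding genes of chromosome 11 (right). Lines are the 4 lists; on the right H3K4me3 rises to 62.7% at the start, and on the left no list passes 4.52%.

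The genes lay in 7 clusters, defined as at least 5 members with neighbouring genes no more than 500 kb apart, which held 167 of the 177 genes in 5.58 Mb. The other 10 genes fell into 4 smaller groups. In the clusters the 4 lists together had 100 peaks, or 17.9 per Mb, compared with 47.7 per Mb in the rest of chromosome 11 and 45.4 per Mb over chromosomes 1 to 22 and X. The cluster value depended on the definition, with 27.5 per Mb for a gap of 1 Mb and 8.02 per Mb within 10 kb of a receptor coding exon. Over the clusters pooled, every list was sparser than in the rest of the chromosome. H3K4me3 had 3.23 peaks per Mb against 7.17, H3K27Ac 4.48 against 13.2, H3K4me1 2.87 against 10.1 and FAIRE 7.35 against 17.2. H3K4me1 peaks covered 1.1% of the bases of the clusters and 4.16% of the rest of chromosome 11.

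The peaks were unevenly spread among the clusters. OR5AN1 to OR10V1 had 90.2 peaks per Mb, more than the rest of the chromosome, and was denser than it in every list except H3K4me1. The small group of OR5P2 to OR10A3 had 48.0 peaks per Mb. The clusters OR52B4 to OR52W1 and OR5AN1 to OR10V1 had 80 of the 100 peaks. The cluster of OR9Q1 to OR5B21 had 16, and the remaining 4 clusters, with 89 genes, had at most 2 each. No peak was found from OR2AG2 to OR2D3 (8 genes in 0.156 Mb) or from OR4B1 to OR4A47 (7 genes in 0.273 Mb). From OR4A16 to OR5AK2, 50 genes in 1.65 Mb were accompanied by 2 FAIRE peaks and no histone peak. From OR6X1 to OR8A1, 24 genes in 0.829 Mb had 1 H3K4me3 peak, at VWA5A, and 1 FAIRE peak.

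**Figure D5:**
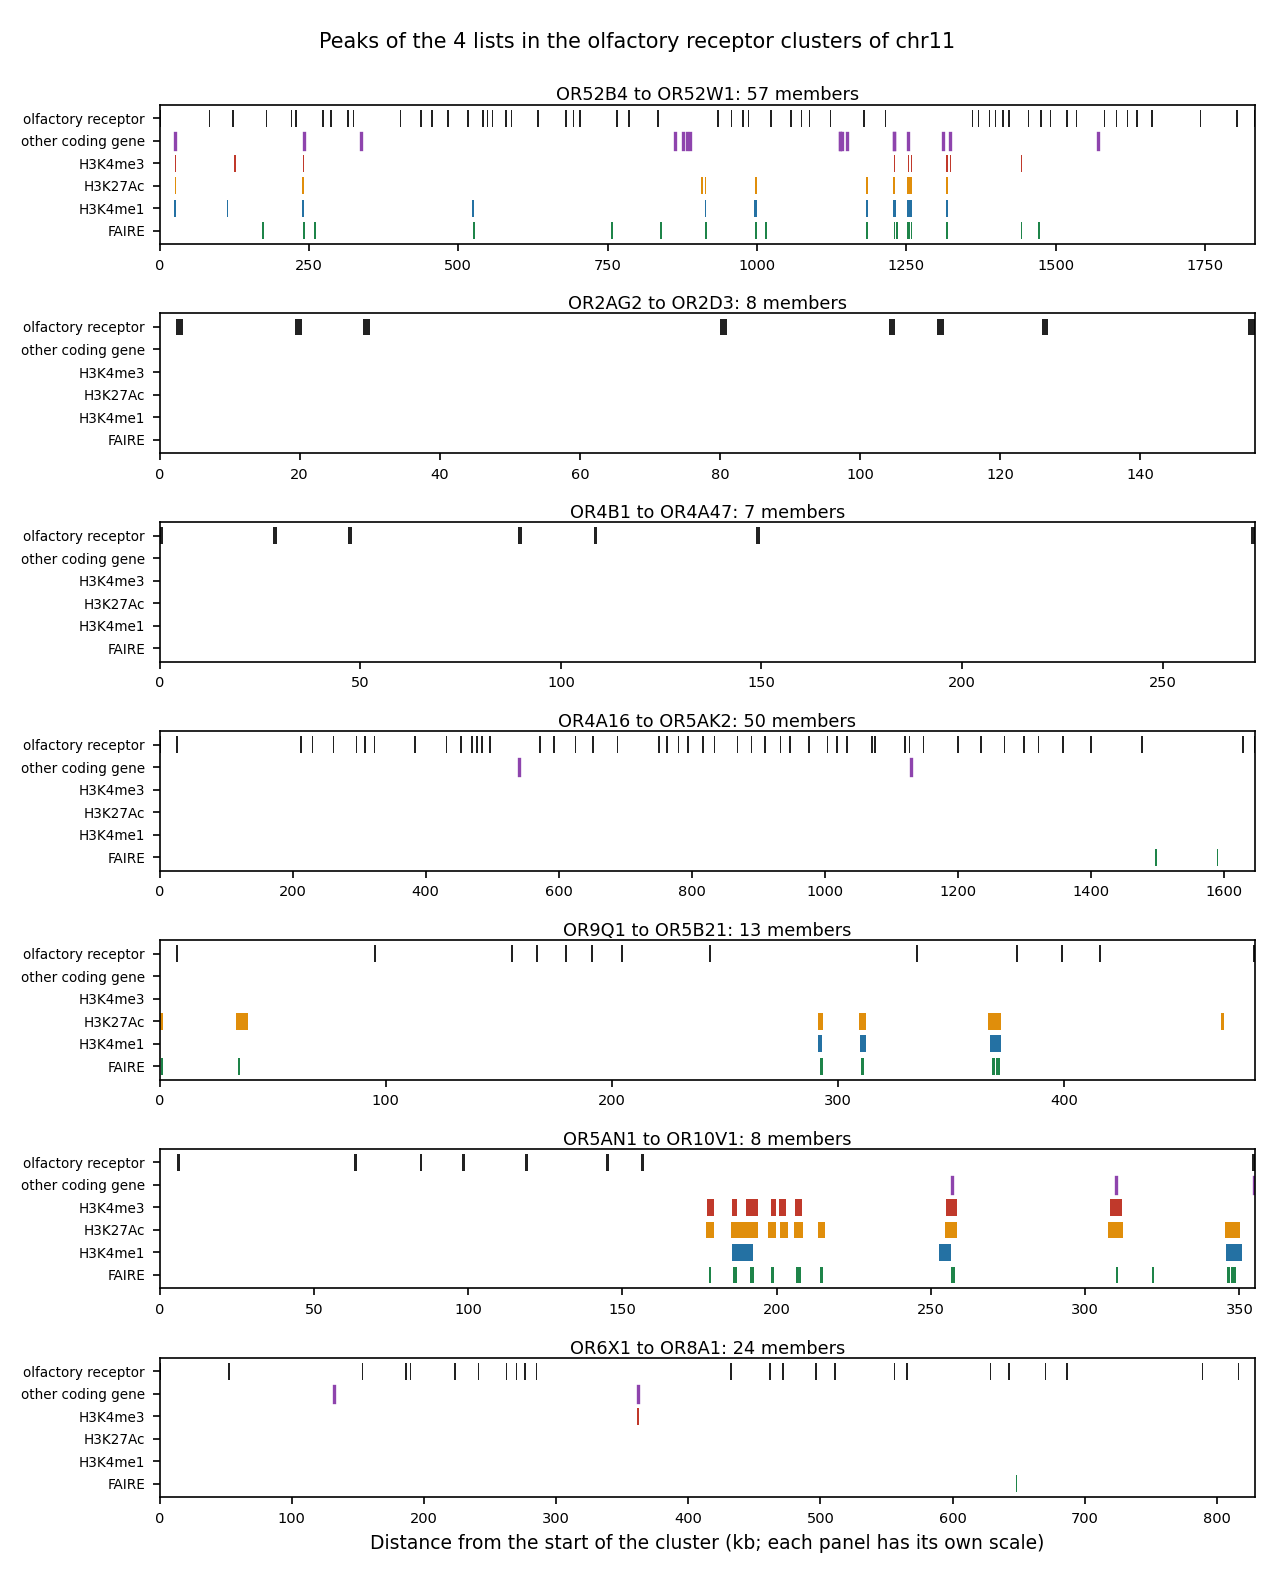
Positions in kb from the start of each of the 7 clusters (x axis, each panel with its own scale) of receptor coding exons (black), start sites of other coding genes (purple) and the peaks of the 4 lists (colours); narrow items are drawn at a minimum width. No peak overlaps one of the short receptor coding exons, and the clusters OR2AG2 to OR2D3 and OR4B1 to OR4A47 have no peak at all.

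The largest stretch of chromosome 11 without a peak of any list held receptor genes on both sides of the centromere. It ran over chr11:48772075-56607695, from before OR4C13 to OR5G3, with 53 receptor genes, and 4.43 Mb of its 7.84 Mb were bases of known sequence. By known sequence it was the largest such stretch of the chromosome and number 2 among 55511 on chromosomes 1 to 22 and X. Placed by their longest coding exons, the other 124 genes lay in 29 further stretches, although some of their records or start sites held peaks.

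Repeated sequence lowers the number of reads that can be placed, and this was measured from the genome. Of the 50-base words taken every 10 bases from the receptor promoters, 93.3% had no second site in GRCh37 with at most 1 mismatch, compared with 94.1% for the other coding promoters of chromosome 11. At least 90% of words were unique in 135 of the 177 receptor genes (76.3%), a lower share than the 84.4% of the other coding genes of chromosome 11, and all 4 marked genes were among them. The lowest shares were 32.1% for OR4A47 and 49.5% for OR4C46 (named after their values were seen). Whole clusters ranged from 63.7% for OR4B1 to OR4A47 to 90.9% for OR6X1 to OR8A1, and the small group of OR4A5 to OR4C46 had 46.1%. The groups next to the centromere without peaks thus had less unique sequence, whose part in the result was not tested, while the 50 genes of OR4A16 to OR5AK2 lay in sequence that was 86.0% unique.

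Where peaks occurred in the clusters, few lay at the start site of a receptor gene. Of the 100 peaks, 6 lay within 1 kb of a receptor start site, 32 at the start of another coding gene, 26 at the start of a non-coding gene or pseudogene, and 36 near no annotated start. The pseudogenes include the receptor pseudogenes OR51A6P, OR52H2P and OR5BC1P. The same shares over all peaks of the lists are not given here, and which gene a peak acts on was not tested. By list, 10 of 18 H3K4me3 peaks were at other coding genes, whereas 23 of 41 FAIRE peaks were near no start. Within 5 kb of a receptor coding exon lay 9 of the 100, and 0 overlapped one. These exons are short and make up a small part of the clusters, so few overlaps could occur. Per Mb, bases within 10 kb of a receptor coding exon had 8.02 peaks, against 17.9 over the whole clusters. Peak strength differed by list. The H3K4me3 peaks in the clusters had a median score of 988, below the 3100 of the whole list. The H3K27Ac peaks had a median score of 1137 against 591, and the H3K4me1 peaks 168 against 114. FAIRE peaks had a median height of 61.8 against 61.1.

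The clusters contained 160 intervals between neighbouring receptor coding exons, with a median length of 23.4 kb. No peak was present in 140 of them. A peak was found in 6 of the 16 intervals (37.5%) that hold the start of another coding gene and in 14 of the 144 (9.72%) that do not. The first kind was also longer, with a median of 64.4 kb against 21.3 kb. The intervals of the first kind held 65 peaks in 1.18 Mb, and those of the second held 33 peaks in 4.21 Mb. Of the 65, 32 lay in the interval from OR4D9 to OR10V1 and 19 in that from OR52B6 to OR52P1.

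Of the 24 other coding genes within the clusters, 12 (50%, interval 31.4% to 68.6%) had a promoter peak, against 70.7% of all coding genes, and 8 of these had peaks of all 4 lists. Most were tripartite motif genes, a family with roles in antiviral defence. TRIM68, TRIM6, TRIM6-TRIM34, TRIM34 and TRIM5 had all 4 lists, as did ENSG00000239920, a long record without a symbol. TRIM21, an intracellular antibody receptor, had the 3 histone marks with an H3K4me3 score of 3100. TRIM22 had H3K4me3 only, with a score of 208. In the OR5AN1 to OR10V1 cluster, OSBP, an oxysterol-binding protein, had all 4 lists, and PATL1, an RNA decay factor, had all but H3K4me1. STX3, a syntaxin whose record begins at the end of that cluster, also had all 4 lists, but its peaks lay at start sites beyond the cluster. VWA5A had a weak H3K4me3 peak with a score of 171. The single interval from OR52B6 to OR52P1, with the starts of 6 of these genes, held 19 peaks within 145 kb.

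The other 12 genes within the clusters had no promoter peak. They included the beta-globins HBB, HBD, HBG1, HBG2 and HBE1, and also MMP26, TRIM51 and TMEM225 (the last 3 named after their values were seen). All 5 beta-globins were thus unmarked, like the receptors around them. However, a site inside the long HBE1 record, upstream of the start of its shortest transcript and in the stretch known to hold the locus control region of the beta-globins, had an H3K27Ac peak (score 621), an H3K4me1 peak (143) and a FAIRE peak with a height of 147. It spanned chr11:5300624-5303540, and 97.6% of all FAIRE peaks were lower.

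When peaks that shared bases were merged, the clusters had 41 sites. Only 4 of these were at receptor start sites and 9 at other coding starts. FAIRE alone made up 11 sites, and 7 sites had H3K27Ac, H3K4me1 and FAIRE together without H3K4me3, the combination of an active enhancer. The 7 sites, singled out after their values were seen, had a median distance of 10.2 kb from the nearest receptor coding exon. They included the site in the HBE1 record, the site next to OR52H1 and the site inside the OR51B5 record (chr11:5383863-5387838, 10.2 kb from OR51B6). A further 3 lay between OR10W1 and OR5B3. The strongest of these, chr11:58157836-58163593, was 6.35 kb from OR5B3, with an H3K27Ac score of 3100, an H3K4me1 score of 437 that was above 93.1% of that list, and 3 FAIRE peaks. The last was 3.25 kb from OR10V1 at chr11:59471700-59477140, with an H3K27Ac score of 3100. OR5B3 and OR10V1 themselves had no promoter peak.

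The middle 300 bases of a FAIRE peak are shown for the site next to OR52H1 and the site near OR5B3, with TGANTCA in capitals. This heptamer pattern includes TGACTCA and TGAGTCA, the sites bound by AP-1, but also TGAATCA and TGATTCA. The bases shown are from the plus strand of GRCh37, and both they and the heptamer were chosen after the peaks had been seen. These FAIRE peaks have no annotated start within 1 kb, but the histone peaks at the OR52H1 site lie within 1 kb of the start of OR52H1 or OR52H2P. TGANTCA read on the other strand is again TGANTCA.
OR52H1 site, chr11:5571821-5572120: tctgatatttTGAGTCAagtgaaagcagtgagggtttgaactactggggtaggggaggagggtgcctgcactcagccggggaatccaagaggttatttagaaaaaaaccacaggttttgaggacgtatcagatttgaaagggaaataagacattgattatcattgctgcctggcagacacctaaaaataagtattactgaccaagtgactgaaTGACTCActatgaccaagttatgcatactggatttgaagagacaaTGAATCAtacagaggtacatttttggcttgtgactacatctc
OR5B3 site, chr11:58160155-58160454: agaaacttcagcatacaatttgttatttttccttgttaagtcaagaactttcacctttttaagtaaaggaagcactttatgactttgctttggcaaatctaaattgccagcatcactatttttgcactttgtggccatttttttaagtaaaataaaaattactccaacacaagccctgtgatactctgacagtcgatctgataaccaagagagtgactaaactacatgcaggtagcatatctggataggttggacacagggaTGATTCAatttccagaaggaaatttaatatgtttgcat
The first holds 3 heptamers and the second holds 1. Only FAIRE peaks with a heptamer in their middle could be shown, so its presence in both was set by the choice. Another stretch that met the same conditions, at the site in the HBE1 record (FAIRE height 147), holds 2 heptamers and is not shown. The middles of the other 2 FAIRE peaks at the OR5B3 site, with heights of 36.2 and 80.5, hold 0. A heptamer was present in the middle of 10 of the 41 FAIRE peaks in the clusters (24.4%, interval 13.8% to 39.3%) and of 39.2% of all FAIRE peaks.

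In the OR5AN1 to OR10V1 cluster all 32 peaks lay in the single interval of 197 kb between OR4D9 and OR10V1, and 0 lay among the 7 receptors from OR5AN1 to OR4D9. Besides OSBP and PATL1, this interval had H3K4me3 peaks with a score of 3100 at LINC02739 and at chr11:59316446-59320232, which is near no annotated start. In the OR9Q1 to OR5B21 cluster, by contrast, there was no H3K4me3 peak, and 6 H3K27Ac, 3 H3K4me1 and 7 FAIRE peaks. Of the smaller groups, OR5P2 to OR10A3 (4 genes) had 7 peaks at 3 sites, all at least 19.6 kb from a receptor coding exon, and the other 3 groups had none.

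Class I and class II receptors could not be separated from their places on the chromosome. All 57 class I genes lay in the OR52B4 to OR52W1 cluster, which held no class II gene, and the 120 class II genes made up all other groups. A promoter peak was found at 3 class I genes (5.26%, interval 1.81% to 14.4%) and at 1 class II gene (0.833%, interval 0.147% to 4.57%), against 70.7% of all coding genes. The intervals overlap, but they treat neighbours in a cluster as independent. Their overlap therefore does not decide whether the classes differ, which was not tested. The median distance to a peak was 38.3 kb for class I and 137 kb for class II genes. Median GC content was 39.7% and 37%.

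Genes that act with the receptors in olfactory neurons were marked in part. Among 11 genes of olfactory signal transduction, 4 had a promoter peak of any list, against 70.7% of all coding genes. GNAL, the olfactory G protein subunit, had peaks of all 4 lists, RIC8B and CNGA4 had H3K4me3, H3K27Ac and FAIRE, and ADCY3, the olfactory adenylyl cyclase, had H3K4me3 and H3K27Ac. The other 7 (CNGA2, CNGB1, ANO2, OMP, GNG13, SLC24A4 and STOML3) had none. Of the trafficking factors, REEP1 had an H3K4me3 peak (1 gene of 3 with any list), and RTP1 and RTP2, which carry receptors to the cell surface, had none.

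Of 11 regulators of receptor choice, 9 had a promoter peak of any list, which is near the 70.7% of all coding genes. KDM1A, the H3K4 demethylase, ATF5 and DDIT3 had H3K4me3, H3K27Ac and FAIRE, and LDB1, the cofactor that joins receptor enhancers in olfactory neurons, had all 3 histone marks. LHX2, its partner there, and EMX2 had no peak. EBF1 had H3K27Ac, H3K4me1 and FAIRE without H3K4me3, EBF4 had H3K4me3 and H3K27Ac, and EBF2, EBF3 and BCL11B had H3K4me3 only. All 10 heterochromatin genes (CBX1, CBX3, CBX5, SUV39H1, SUV39H2, SETDB1, EHMT1, EHMT2, TRIM28 and LBR), which read, write or anchor repressive chromatin, had H3K4me3 and H3K27Ac peaks, against 67.3% and 63.5% of all coding genes. LBR, the lamin B receptor whose loss from olfactory neurons is part of receptor gene clustering there, had peaks of all 4 lists.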

How the data were processed

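Reads had been aligned by the authors with BWA to GRCh37 and filtered for duplicates and mapping quality, and the 2 samples of each assay were combined. Histone peaks were called by the authors with MACS against input, and the deposited score is the log10 of the p-value multiplied by minus 10. FAIRE peaks were called by the authors with FindPeaks, and the deposited value is the height of the signal (coverage). Read depth was not analysed here, and a peak list keeps no depth.

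The genes were the coding genes of GENCODE release 44 on GRCh37, and the members and lists were chosen with earlier results of these data known. Named genes were members with a peak in promoter or record, the 5 nearest to and 5 farthest from a peak, other cluster genes with a promoter peak and fixed lists (beta-globins, transduction, trafficking, receptor choice, heterochromatin, receptors transcribed outside the nose). Cell markers were fixed as well. Overlap required 1 shared base. Shares have 95% Wilson intervals from statsmodels 0.14.6, and no test was made. Counting used numpy 2.4.6 and pandas 2.3.3 and was checked on simulated data against bedtools 2.31.1. Unique words were found with numba 0.67.0. Left out were chromosome Y, unplaced sequence and non-coding genes as members. Alternatives were other windows, start sites, stricter lists, peak centres, unique promoters and cluster gaps.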

Additional observations from a re-analysis of the deposited data

How the results depend on the processing

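No paired analysis was possible because the 2 samples of an assay share 1 list, and no sample could be left out. Of 55 alternatives, 35 kept the value within 1.5 times of the count or within the interval of the median, and in 20 it moved. Using the 5′ end of the record or coding transcripts changed no promoter count. Keeping the 135 genes with at least 90% unique words kept all 4 marked genes, so their counts could not change. With windows of 500 bp, H3K27Ac was at 1 promoter, against 62.9% of all coding genes, and with 2 kb, H3K4me1 was at 2, against 22.3%. With 5 kb, H3K4me3 was at 2, H3K27Ac at 4, H3K4me1 at 3, FAIRE at 8 and any list at 10 promoters, against 69.9%, 67.6%, 26.9%, 50.3% and 75.8% of all coding genes. With 10 kb, added after seeing the data because many records lack a 5′ exon, these counts were 3, 5, 5, 14 and 15, against 72.4%, 71.4%, 33.5%, 58.8% and 79.8%. With MACS scores of 100 or more and FAIRE heights at or above the median, H3K27Ac was at 1 and FAIRE at 0 promoters, against 61.6% and 24.4%. With the centre of the peak inside the window, H3K27Ac was at 1, H3K4me1 at 0 and any list at 2 promoters, against 57.7%, 8.64% and 68.4%.

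Peaks per Mb of cluster rose to 27.5 with a gap of 1 Mb, which merges neighbouring clusters. In settings added after seeing the data, the value was 8.02 within 10 kb of a receptor coding exon and 13.0 without the OR5AN1 to OR10V1 cluster. The median distance was 103 kb with the stricter lists. The causes of these shifts were not tested. Peaks that share the score 3100 could not be ranked, a gene below the authors' threshold appears as unmarked, and true start sites may lie outside the annotation.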
